A study of Mus musculus with 6 samples.

Results

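The limbus, the border zone between cornea and conjunctiva, houses stem cells from which the corneal epithelium is renewed. Limbal stem and progenitor markers are examined here through 10 genes that have been reported to mark these cells and are not keratins: Gpha2, Ifitm3, Cd63, Abcg2, Abcb5, Bmi1, Lrig1, Tcf4, Cebpd and Cdh3. They were chosen by name, with earlier results of these data known, and each has 1 of the 39089 rows of the deposited gene table. RNA came from the corneal limbus of wild-type (WT) mice. The 3 L-733,060 samples are from mice given this NK1 receptor antagonist under the conjunctiva on days 0 and 3, and the 3 control samples are from mice given sterile water, for which no injection days are stated. The NK1 receptor is the main receptor of the neuropeptide substance P, and the comparison asks how the limbus differs when that receptor is blocked. Tissue was collected after a week. Strain, age and sex are not given in the labels, which also do not say whether samples are single mice or pools. P-values therefore reflect only how these 6 samples spread, and that spread may be technical.

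In mouse, the limbal epithelium has been described as an outer zone of mostly quiescent stem cells, in which Gpha2, Ifitm3 and Cd63 are enriched, and an inner zone of more active stem cells, in which Atf3, Socs3, Mt1 and Mt2 are enriched. Descendants of these cells move towards the centre of the cornea, divide, and switch on corneal genes such as the keratin gene Krt12. Other markers were proposed for their role: efflux pumps that let cells exclude dyes (Abcg2, Abcb5), regulators of quiescence or self-renewal (Cebpd, Bmi1, Lrig1), a transcription factor (Tcf4) and an adhesion molecule of basal cells (Cdh3).

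Of the 9 genes abundant enough to test, 5 were higher with L-733,060 (Gpha2, Ifitm3, Cd63, Cebpd and Cdh3), 2 were lower (Lrig1 and Abcg2), and 2 did not pass the threshold (Bmi1 and Tcf4). Abcb5 was almost absent. The test was edgeR's quasi-likelihood F test on counts, two-sided, with a threshold of 0.05 after Benjamini-Hochberg adjustment across the 15712 genes tested. Among all of those genes 41.3% passed it, 21.4% higher and 19.9% lower, so a passed test by itself does not set these genes apart. The groups did not overlap in normalised CPM (a count relative to library size) for 8 of the 9 genes, against 52% of all tested genes. The median log2 fold change was 0.90 over the 9 genes and -0.00 over all tested genes.

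Total counts per sample ran from 18708288 to 23541791, so that a gene with 3 counts had 0.127 to 0.160 CPM. The first principal component held 81.0% of the variance and separated the groups. Limbal and basal epithelial genes were abundant in both groups, with Krt5, Krt14, Krt15, Trp63 and Pax6 all present and a summed TPM (a level per gene length and library size) over 10 genes of 32941 to 41834 in controls and 35966 to 46980 with L-733,060. These sums hide opposite changes. By the edgeR test 3 of the 10 genes rose (Krt14, Epcam and Itga6) and 3 fell (Krt5, Krt15 and Pax6), against 21.4% and 19.9% of all tested genes. Krt14 moved from 2018 to 18835 TPM on average and Krt5 from 16792 to 9368 TPM. Without L-733,060 1 the number that fell was 1. Conjunctival and corneal differentiation genes were abundant too, so the tissue may have held more than limbal epithelium. In bulk tissue, fewer cells of a type and less RNA per cell cannot be told apart.

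The promoters of 3 members and 1 active marker are shown: Gpha2 and Ifitm3 were the most abundant members and rose, Lrig1 fell, and Socs3 rose most of the active markers. The sequences are from RefSeq (GRCm38.p6), 250 bases before to 50 after the start. Capitals mark matches, on either strand, to TTCNNNGAA (the STAT motif), TGANTCA (AP-1) or the interferon response element, written as GAAA, any 2 bases and GAAA again. They lie at chr19:6226151-6226450 on the plus strand (Gpha2), chr7:141010695-141010994 on the minus strand (Ifitm3), chr6:94700096-94700395 on the minus strand (Lrig1) and chr11:117969317-117969616 on the minus strand (Socs3).
Gpha2: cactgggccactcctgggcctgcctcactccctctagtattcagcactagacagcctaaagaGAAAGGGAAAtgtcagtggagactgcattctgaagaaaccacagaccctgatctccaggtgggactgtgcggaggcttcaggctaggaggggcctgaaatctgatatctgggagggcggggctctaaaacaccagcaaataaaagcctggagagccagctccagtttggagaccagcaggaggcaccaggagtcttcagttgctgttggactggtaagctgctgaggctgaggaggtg
Ifitm3: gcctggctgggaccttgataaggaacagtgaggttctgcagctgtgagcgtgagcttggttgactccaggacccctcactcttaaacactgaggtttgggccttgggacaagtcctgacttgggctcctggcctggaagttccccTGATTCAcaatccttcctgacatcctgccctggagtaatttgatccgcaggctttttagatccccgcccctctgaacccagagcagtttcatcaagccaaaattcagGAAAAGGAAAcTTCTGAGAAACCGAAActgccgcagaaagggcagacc
Lrig1: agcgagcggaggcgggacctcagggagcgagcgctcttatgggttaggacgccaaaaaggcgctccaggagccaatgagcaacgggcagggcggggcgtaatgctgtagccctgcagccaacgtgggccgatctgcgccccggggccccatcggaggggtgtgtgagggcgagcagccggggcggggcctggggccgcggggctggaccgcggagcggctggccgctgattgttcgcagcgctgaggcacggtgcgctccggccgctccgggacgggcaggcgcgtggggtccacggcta
Socs3: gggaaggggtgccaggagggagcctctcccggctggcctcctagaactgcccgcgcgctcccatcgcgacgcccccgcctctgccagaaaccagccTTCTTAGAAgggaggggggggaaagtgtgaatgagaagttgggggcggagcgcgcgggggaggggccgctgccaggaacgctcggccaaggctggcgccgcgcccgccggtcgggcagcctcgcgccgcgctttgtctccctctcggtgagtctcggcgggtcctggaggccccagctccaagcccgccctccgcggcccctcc
The Gpha2 promoter holds the interferon response element at bases -188 to -179, counted from the start, where the first transcribed base is 1. The Ifitm3 promoter holds that motif at 3 to 12 and at 20 to 29, TTCNNNGAA at 14 to 22, which overlaps the second of these, and TGANTCA at -105 to -99. The Socs3 promoter holds TTCNNNGAA at -154 to -146, and the Lrig1 window holds none of the 3 motifs. Among 32851 promoters of this length, 8.30% hold TTCNNNGAA, 7.81% TGANTCA and 3.44% the interferon response element. Of the 10 members, 7 have a promoter in the table, and those of Abcb5, Abcg2, Bmi1 and Cd63 hold no match. Cdh3, Cebpd and Tcf4 have none in it. The RefSeq start is the edge of the deposited gene interval for Gpha2 and Ifitm3. For Lrig1, Socs3 (chr11:117966079-117970336), Cd63, Abcb5 and the 3 promoters of Abcg2 it lies inside the deposited interval. These windows may therefore miss other starts of the counted gene. A match is a description of the letters, not a binding site.

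Gpha2 encodes the alpha subunit of thyrostimulin, a glycoprotein hormone, and lies at chr19:6226401-6227768 (mm10, plus strand). Its TPM was 388, 531 and 663 in controls 1 to 3 against 920, 948 and 1143 in L-733,060 samples 1 to 3. The groups did not overlap, with control 1 the lowest and L-733,060 3 the highest sample. Gpha2 rose by a log2 fold change of 0.90 (SE 0.18, n = 3 per group, edgeR adjusted p = 0.00164), a 1.87-fold rise of mean CPM from 149 ± 40.1 to 279.8 ± 19.2 (SD). Controls varied more than antagonist samples, with a coefficient of variation of 26.9% against 6.85% in CPM. When counts were scaled by 3 epithelial genes in place of the whole library, the log2 fold change was 0.40 and did not pass (edgeR adjusted p = 0.129). That scaling moved the median of all tested genes to -0.49. With Trp63 and Cdh1 alone as the scaling genes, Gpha2 was 0.73 and passed (edgeR adjusted p = 0.0208).

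Ifitm3 encodes an interferon-induced membrane protein that restricts entry of viruses, and lies at chr7:141009590-141010744 (minus strand). Its TPM was 228, 255 and 290 in controls 1 to 3 against 1383, 1172 and 1027 in L-733,060 samples 1 to 3. Every antagonist sample lay more than 3-fold above every control. The log2 fold change was 2.20 (SE 0.17, n = 3 per group, edgeR adjusted p = 1.51e-06), and 3.81% of all tested genes had a larger one. Ifitm3 has close paralogs, so reads shared among them make its counts less certain.

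Cd63 encodes a tetraspanin of late endosomes, lysosomes and secreted vesicles, and lies at chr10:128896231-128912822 (plus strand). Its TPM was 58.2, 74.3 and 86.9 in controls 1 to 3 against 206, 188 and 232 in L-733,060 samples 1 to 3. The groups did not overlap, and, as for Gpha2 and Ifitm3, control 1 was the lowest and control 3 the highest control. The log2 fold change was 1.49 (SE 0.16, n = 3 per group, edgeR adjusted p = 1.95e-05).

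**Figure D1:**
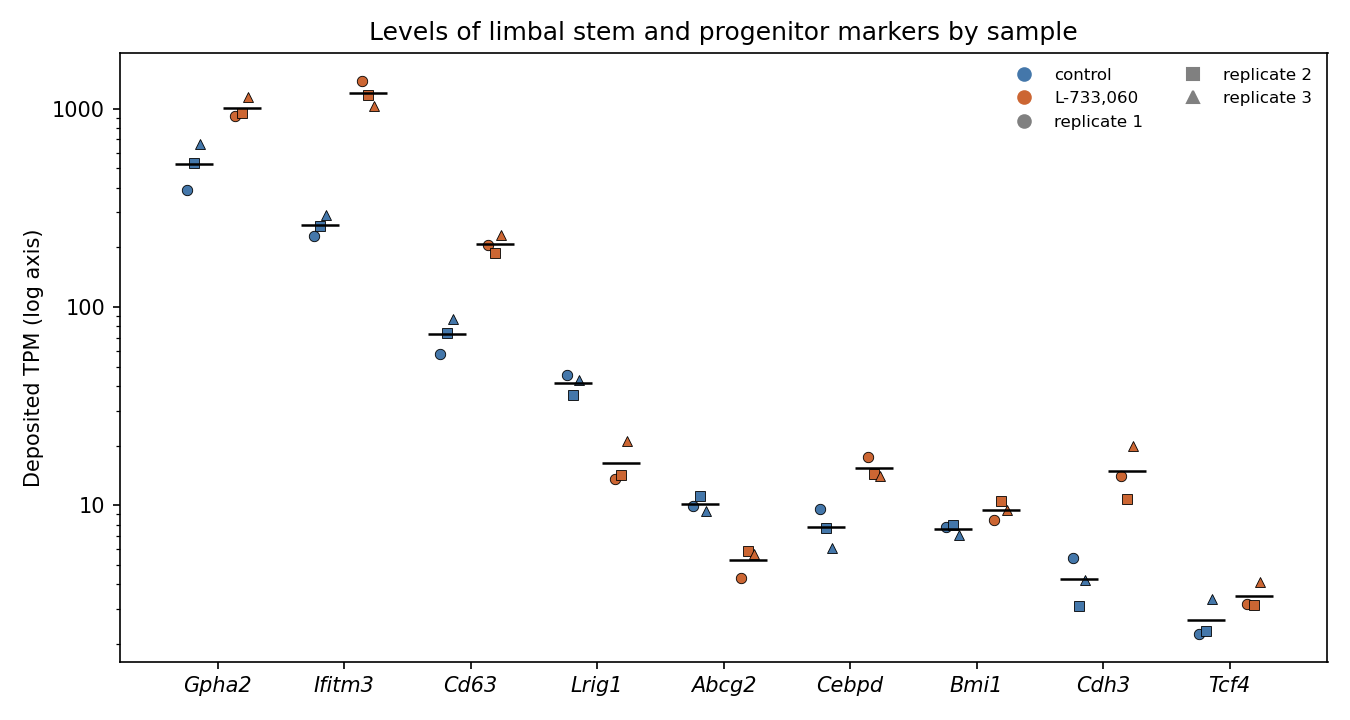
Deposited TPM on a log axis for the 9 tested members in each sample, with controls in blue, L-733,060 in orange, marker shape for replicate number and a bar at each group mean. Ifitm3 moved from 258 to 1194 TPM on average and Lrig1 from 41.4 to 16.3, while the groups of Tcf4 overlap.

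Among the regulators of quiescence and self-renewal, 1 rose, 1 fell and 1 did not pass. Cebpd, a C/EBP transcription factor that has been tied to a non-dividing state of human limbal stem cells, lies at chr16:15887286-15889545 (plus strand). Its TPM was 9.60, 7.67 and 6.08 in controls 1 to 3 against 17.5, 14.4 and 14.0 in L-733,060 samples 1 to 3. The groups did not overlap, and here control 1 was the highest control. Cebpd rose by a log2 fold change of 0.97 (SE 0.20, n = 3 per group, edgeR adjusted p = 0.00209). Cebpd overlaps the gene Spidr on the other strand by 322 bases, and Spidr had a log2 fold change of 1.13 (edgeR adjusted p = 0.000711). Whether counting used the strand is not given in the labels or notes, so reads from that overlap cannot be told apart.

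Bmi1, a subunit of Polycomb repressive complex 1 (PRC1) that sustains self-renewal of several adult stem cells, lies at chr2:18677018-18686629 (plus strand). Its TPM was 7.75, 7.94 and 7.06 in controls 1 to 3 against 8.40, 10.5 and 9.45 in L-733,060 samples 1 to 3. The samples did not overlap, but the gap was small, and the log2 fold change of 0.30 did not pass (SE 0.13, edgeR adjusted p = 0.0924). It passed with scaling by library size alone, at 0.35 (edgeR adjusted p = 0.0469), and was -0.18 with scaling by the epithelial genes (edgeR adjusted p = 0.364).

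Lrig1 encodes a transmembrane protein that dampens signalling of the EGF receptor family and marks stem cells in skin, and lies at chr6:94604529-94700298 (minus strand). Its TPM was 45.6, 35.9 and 42.8 in controls 1 to 3 against 13.5, 14.2 and 21.1 in L-733,060 samples 1 to 3. All antagonist samples lay below all controls, and L-733,060 3 was nearest to them. Lrig1 fell by 1.37 on the log2 scale (SE 0.15, n = 3 per group, edgeR adjusted p = 2.58e-05), 2.58-fold, and 5.01% of all tested genes had a more negative log2 fold change.

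Of the efflux pumps, Abcg2 fell and Abcb5 was near absence in both groups. Abcg2, the pump behind the dye-excluding side population, lies at chr6:58584491-58692451 (plus strand). Its TPM was 9.97, 11.1 and 9.31 in controls 1 to 3 against 4.30, 5.87 and 5.68 in L-733,060 samples 1 to 3. The groups did not overlap, and Abcg2 fell by 0.96 on the log2 scale (SE 0.17, n = 3 per group, edgeR adjusted p = 0.000964). Abcb5, which marks limbal stem cells in human and mouse, lies at chr12:118867486-118966434 (minus strand). It had 1 count in control 3 and 0 counts in the other 5 samples, and its depth does not allow a comparison. A level of 3 counts over a group is 0.0444 CPM for the controls and 0.0494 CPM for the antagonist group, and covers counting error only.

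Tcf4, a basic helix-loop-helix E protein, and Cdh3, the cadherin of basal epithelial cells called P-cadherin, parted. Cdh3 lies at chr8:106510852-106556911 (plus strand). Its TPM was 5.43, 3.10 and 4.19 in controls 1 to 3 against 14.1, 10.7 and 19.8 in L-733,060 samples 1 to 3. The groups did not overlap, although both were spread widely, with coefficients of variation of 23.3% and 26.7% in CPM. Cdh3 rose by a log2 fold change of 1.80 (SE 0.22, n = 3 per group, edgeR adjusted p = 6.47e-05), 3.48-fold.

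Tcf4 lies at chr18:69343429-69687967 (plus strand). Its TPM was 2.24, 2.33 and 3.38 in controls 1 to 3 against 3.17, 3.14 and 4.10 in L-733,060 samples 1 to 3. The groups overlapped, control 3 lying above L-733,060 samples 1 and 2. The log2 fold change of 0.37 did not pass (SE 0.16, edgeR adjusted p = 0.0858). Without control 3 it was 0.57 and passed (edgeR adjusted p = 0.0179), and with scaling by the epithelial genes it was -0.13 (edgeR adjusted p = 0.565). The deposited gene length of Tcf4, 42462 bases, is the longest of the 10 and lowers its TPM.

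**Figure D2:**
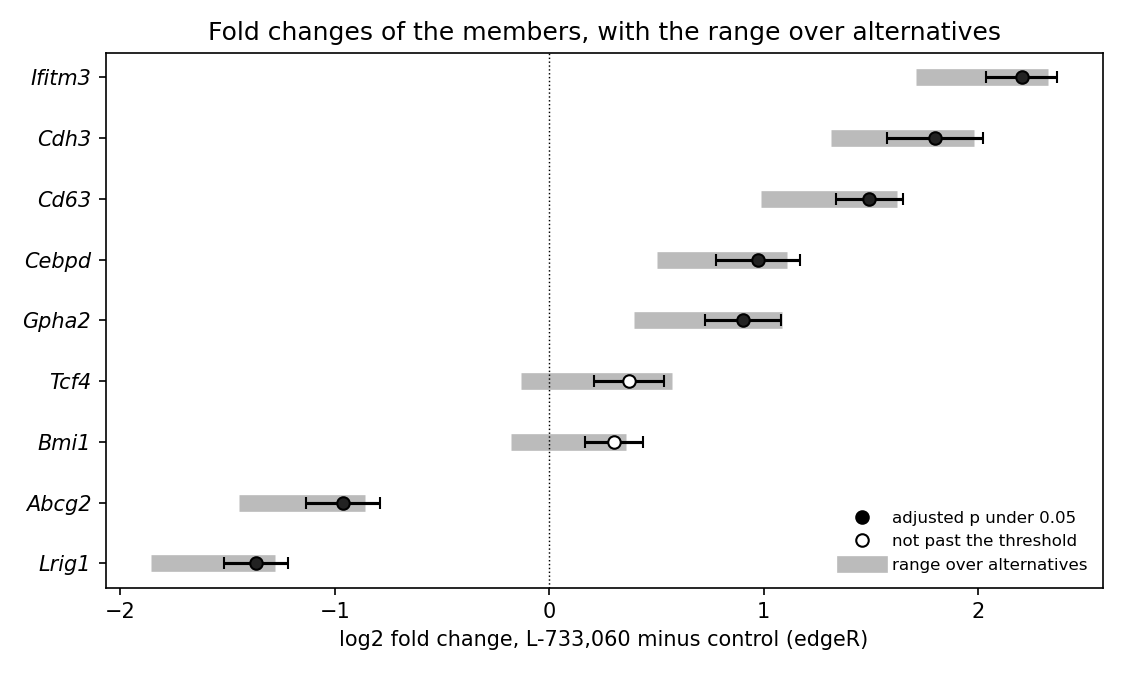
The log2 fold change of each tested member (L-733,060 minus control, edgeR), with bars for 1 SE, filled points past the threshold, and grey bands for the range over the alternative settings. Ifitm3 stands highest at 2.20 and Lrig1 lowest at -1.37, and the grey bands of Tcf4 and Bmi1 cross 0.

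Levels of the genes can be ordered within a group by TPM. In controls the mean fell from Gpha2 (528 ± 138 TPM, SD) through Ifitm3 (258 ± 31.1 TPM), Cd63 (73.1 ± 14.4 TPM) and Lrig1 (41.4 ± 5.01 TPM), with no overlap between neighbours. Abcg2 (10.1 TPM), Cebpd (7.78 TPM) and Bmi1 (7.58 TPM) followed, each overlapping the next, and then Cdh3 (4.24 TPM), Tcf4 (2.65 TPM) and Abcb5 (0.00704 TPM), of which Cdh3 and Tcf4 overlapped. With L-733,060, Ifitm3 (1194 ± 179 TPM) stood at the level of Gpha2 (1004 ± 121 TPM), and the samples of both overlapped. Lrig1 (16.3 TPM), Cebpd (15.3 TPM) and Cdh3 (14.9 TPM) overlapped in turn, and Abcg2 (5.28 TPM) had moved below Bmi1 (9.46 TPM) without overlap. The ratio of Gpha2 to Ifitm3 TPM was 1.70, 2.08 and 2.29 in controls 1 to 3 against 0.665, 0.809 and 1.11 in L-733,060 samples 1 to 3. The groups of this ratio did not overlap (exact permutation test, two-sided, p = 0.1, the smallest that 3 against 3 samples can give).

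The outer-limbus quiescent markers rose, and no inner-limbus active marker had a log2 fold change below 0. All 3 outer-limbus genes (Gpha2, Ifitm3 and Cd63) rose, with a median log2 fold change of 1.49. Of the 4 inner-limbus genes, 2 rose by the edgeR test, with a median log2 fold change of 0.66, and the counts in both lists have to be read against 21.4% of all tested genes higher. Socs3, the feedback inhibitor of JAK-STAT signalling, rose most. Its TPM was 1.44, 0.925 and 1.76 in controls 1 to 3 against 34.7, 16.9 and 18.0 in L-733,060 samples 1 to 3 (log2 fold change 4.08, SE 0.33, edgeR adjusted p = 2.47e-06).

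Mt1, a metallothionein gene whose product binds zinc and other metals, had TPM of 252, 263 and 234 in controls 1 to 3 against 555, 373 and 333 in L-733,060 samples 1 to 3. It rose by a log2 fold change of 0.75 (SE 0.19, edgeR adjusted p = 0.00921), and did not pass with scaling by the epithelial genes (edgeR adjusted p = 0.306). Its neighbour Mt2 had 1080, 981 and 657 TPM in controls 1 to 3 against 1854, 1234 and 939 TPM in L-733,060 samples 1 to 3. The samples of Mt2 overlapped, and its log2 fold change of 0.57 did not pass (SE 0.26, edgeR adjusted p = 0.0949). Without L-733,060 3 it was 0.79 and passed (edgeR adjusted p = 0.00231), and it also passed without the filter on low counts, with a replicate block (edgeR adjusted p = 0.00689) and by DESeq2 (adjusted p = 0.0472). In each of these 4 settings 3 of 4 active markers were higher. Atf3, a stress-induced transcription factor, was low in all samples (1.17 to 2.53 TPM in controls, 2.06 to 2.69 TPM with L-733,060), and did not pass (log2 fold change 0.54, SE 0.32, edgeR adjusted p = 0.199).

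**Figure D3:**
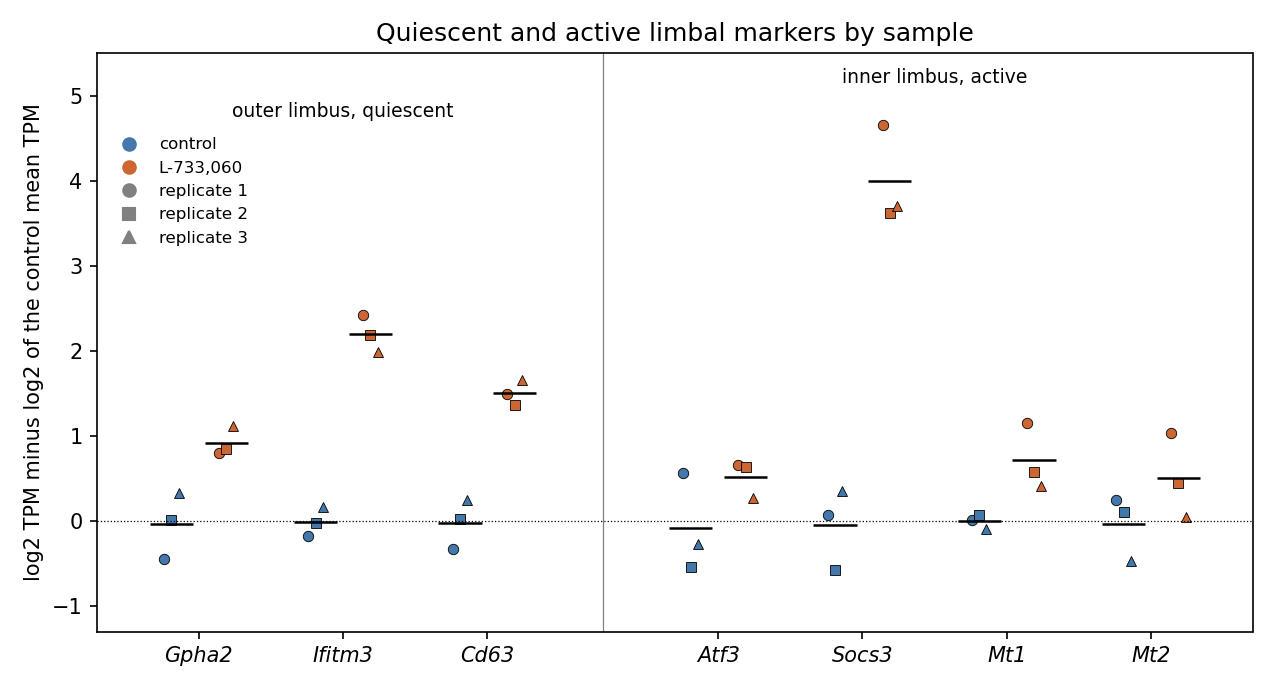
Log2 TPM of each sample minus log2 of the control mean TPM, for the 3 quiescent and 4 active markers, with controls in blue, L-733,060 in orange and a bar at each group mean. The 3 quiescent genes lie above their controls in all L-733,060 samples, Socs3 lies furthest above, and Atf3 and Mt2 overlap with their controls.

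Ratios between genes within a sample do not change with library scaling. The TPM ratio of Gpha2 to Socs3 was 269, 574 and 378 in controls 1 to 3 against 26.5, 56.2 and 63.6 in L-733,060 samples 1 to 3, a fold of 0.118. The ratios of Ifitm3 and Cd63 to Socs3 also dropped, to 0.280-fold and 0.175-fold, with no overlap of the groups. Ifitm3 gained on Atf3, Mt1 and Mt2 by 3.04-fold, 2.81-fold and 3.17-fold with no overlap. Cd63 gained on Atf3 by 1.90-fold and on Mt1 by 1.75-fold with no overlap, while its ratio to Mt2 overlapped (1.98-fold). The ratios of Gpha2 to Atf3, Mt1 and Mt2 (1.28-fold, 1.18-fold and 1.33-fold) all overlapped. Of 23 ratios compared by exact two-sided permutation tests, including those to epithelial genes below, none could reach p under 0.1, and the smallest value adjusted over the 23 was 0.144.

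Genes of cell division rose together with the quiescent markers. All 20 of the listed proliferation genes were higher by the edgeR test, against 21.4% of all tested genes, with a median log2 fold change of 1.15. Mki67, the antigen of cycling cells, had 27.1, 20.5 and 24.4 TPM in controls 1 to 3 against 71.2, 58.0 and 53.4 TPM in L-733,060 samples 1 to 3. The spindle genes Cenpe and Tpx2 had log2 fold changes of 1.75 and 1.47, and Pcna, the replication clamp, had the smallest at 0.50. Leaving out control 1, control 3 or either of L-733,060 samples 1 and 2 ended the Pcna call (edgeR adjusted p from 0.0505 to 0.105). With scaling by the epithelial genes, 16 of the 20 were higher.

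Members were also set against the geometric mean TPM of 3 genes broadly used by epithelial cells: Trp63, a transcription factor of basal cells, Cdh1, the gene of E-cadherin, and Epcam, an adhesion molecule. Trp63 and Cdh1 did not pass between the groups (log2 fold changes 0.16 and 0.12, edgeR adjusted p = 0.297 and 0.581), but Epcam rose by 1.18 on the log2 scale (edgeR adjusted p = 1.16e-05). The Gpha2 ratio was 3.87, 6.76 and 7.88 in controls 1 to 3 against 7.79, 8.28 and 8.28 in L-733,060 samples 1 to 3. Those groups overlapped, control 3 lying above L-733,060 1 (1.37-fold, exact permutation p = 0.2). The ratios of Ifitm3 (3.27-fold), Cdh3 (2.47-fold), Cd63 (2.04-fold) and Cebpd (1.41-fold) were higher with L-733,060 with no overlap. Those of Lrig1 (0.274-fold) and Abcg2 (0.367-fold) were lower with no overlap, and those of Bmi1 (0.881-fold) and Tcf4 (0.938-fold) overlapped. Against Krt15, a keratin gene of the limbal epithelium that fell by 0.57 on the log2 scale (edgeR adjusted p = 0.0129, and 0.0718 without control 3 or 0.0507 without L-733,060 1), the Gpha2 ratio was 0.0225, 0.0322 and 0.0301 in controls 1 to 3 against 0.0819, 0.0812 and 0.0750 in L-733,060 samples 1 to 3. The other limbal and basal keratin genes listed parted. Krt5 fell by 0.86 on the log2 scale (edgeR adjusted p = 0.00172), and Krt14 rose by 3.21 (edgeR adjusted p = 4.51e-07), more than Gpha2 did. The gain of Gpha2 on Krt15 therefore depends on the keratin gene chosen.

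**Figure D4:**
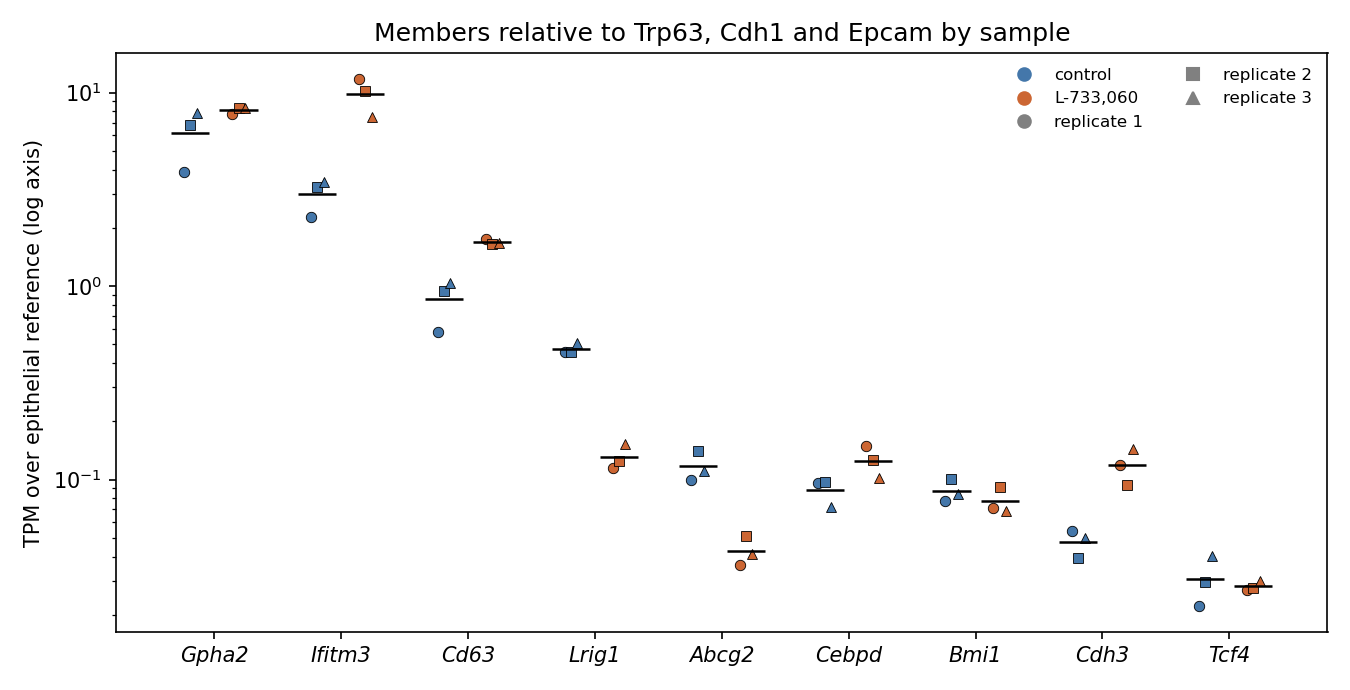
TPM of each tested member divided by the geometric mean TPM of Trp63, Cdh1 and Epcam, on a log axis, in each sample, with controls in blue, L-733,060 in orange and a bar at each group mean. Gpha2, Bmi1 and Tcf4 overlap between groups, Lrig1 and Abcg2 lie lower with L-733,060, and the other 4 lie higher.

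The counts of relatives and partners of the members that follow are to be read against the 21.4% of all tested genes that were higher and 19.9% that were lower. Gphb5, which encodes the beta subunit that pairs with Gpha2 in thyrostimulin, went the other way: it had 53, 40 and 21 counts in controls 1 to 3 against 6, 3 and 2 counts in L-733,060 samples 1 to 3. Gphb5 fell by 3.24 on the log2 scale (SE 0.54, edgeR adjusted p = 0.000525), from 1.17 to 3.28 TPM down to 0.123 to 0.359 TPM. The genes of the common alpha subunit (Cga), the thyrotropin beta subunit (Tshb) and the thyrotropin receptor (Tshr) had too few counts to test.

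Of the other Ifitm genes, 3 could be tested. Ifitm1 was more abundant than Ifitm3 in every sample (3018 to 3448 TPM in controls, 3791 to 4141 TPM with L-733,060), and its log2 fold change of 0.26 did not pass (edgeR adjusted p = 0.135). Ifitm2 rose by 0.54 (edgeR adjusted p = 0.0067), a call lost with scaling by the epithelial genes, and Ifitm10 fell by 0.71 (edgeR adjusted p = 0.0117), a call lost without control 3 (edgeR adjusted p = 0.0609).

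Of 16 tetraspanins and known partners of Cd63, 10 rose and 2 fell, and 5 rose with scaling by the epithelial genes. Without L-733,060 1 the number that rose was 7. Tspan8, a tetraspanin of epithelia, had 3.56 to 5.05 TPM in controls and 84.2 to 99.5 TPM with L-733,060 (log2 fold change 4.37, edgeR adjusted p = 4.22e-08). Timp1, a metalloproteinase inhibitor that binds Cd63 at the cell surface in human cells, had 3.82 to 6.30 TPM in controls and 70.3 to 121 TPM with L-733,060 (log2 fold change 4.37, edgeR adjusted p = 2.48e-07). Cd53, a tetraspanin of white blood cells, rose by 3.01. The tetraspanins that fell were Cd82 and Cd9 (log2 fold changes -1.07 and -0.63).

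Of 5 tested genes listed with Cebpd by name or family, 1 rose, Cebpz (log2 fold change 0.53, edgeR adjusted p = 0.0141). That call was lost without control 1 (edgeR adjusted p = 0.0693). It was also lost with scaling by the 3 epithelial genes and by Trp63 and Cdh1 alone (edgeR adjusted p = 0.863 and 0.164). Cebpb and Cebpa, which act in epithelial differentiation, had log2 fold changes of 0.46 and -0.40 that did not pass (edgeR adjusted p = 0.102 and 0.118). Cebpb passed without L-733,060 2 and Cebpa without L-733,060 3, and both passed with a replicate block and without the filter on low counts. Cebpa also passed as lower with scaling by the 3 epithelial genes (-0.90, edgeR adjusted p = 0.00118) and by Trp63 and Cdh1 alone (-0.55, edgeR adjusted p = 0.0387).

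Among genes of PRC1 and its target Cdkn2a, Pcgf6 and Cdkn2a rose, with log2 fold changes of 0.68 and 1.13 (edgeR adjusted p = 0.00701 and 0.0444). Cdkn2a did not pass when any single sample was left out, and Pcgf6 did not pass with scaling by the epithelial genes (edgeR adjusted p = 0.364). Cbx7, a chromobox subunit that binds methylated histone H3, had 10.8, 8.04 and 9.81 TPM in controls 1 to 3 against 3.75, 3.58 and 6.65 TPM in L-733,060 samples 1 to 3. All antagonist samples lay below all controls, and Cbx7 fell by 1.05 on the log2 scale (SE 0.21, edgeR adjusted p = 0.00177). Ring1 and Cbx2 had log2 fold changes of -0.69 and -0.76 (edgeR adjusted p = 0.0184 and 0.0301), and neither passed without control 1, without L-733,060 1 or without L-733,060 2.

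Of 7 genes of the LRIG and EGF receptor families with Met, 4 fell by the edgeR test, as did Lrig1 itself, and the other 3 did not pass. Erbb2 had 54.4, 36.4 and 47.1 TPM in controls 1 to 3 against 17.9, 15.9 and 35.9 TPM in L-733,060 samples 1 to 3 (log2 fold change -1.01, edgeR adjusted p = 0.00494). Erbb4, Egfr and Erbb3 had log2 fold changes of -1.69, -0.43 and -0.49, and Erbb4 was under 0.2 TPM in every sample. Egfr and Erbb3 lost their calls without control 1 or without L-733,060 1, which left 2 genes lower. Of the 3 genes that did not pass, Lrig2 and Lrig3 had log2 fold changes of 0.14 and 0.04 (edgeR adjusted p = 0.41 and 0.848).

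Of 13 tested ATP-binding cassette transporter genes related to Abcg2 and Abcb5, 5 rose (Abcb1b, Abcc1, Abcg3, Abcb10 and Abcb1a) and 3 fell (Abcb9, Abcg1 and Abcb8). Abcb1b, a multidrug pump of the P-glycoprotein type, had 0.273, 0.214 and 0.266 TPM in controls 1 to 3 against 3.61, 3.36 and 3.92 TPM in L-733,060 samples 1 to 3 (log2 fold change 3.83, edgeR adjusted p = 3.09e-07). Abcg1, a cholesterol exporter related to Abcg2, fell by 0.94 (edgeR adjusted p = 6.32e-05). Without control 3, and with scaling by the epithelial genes, 3 of these transporters rose.

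Partners of Tcf4 gave 2 falls: Id2 and Id4, inhibitors that bind E proteins, fell by 0.91 and 1.23 on the log2 scale (edgeR adjusted p = 0.000634 and 0.001). Id1 and Id3 rose slightly (log2 fold changes 0.34 and 0.44), but neither passed without control 1, without control 2 or without L-733,060 1, and with scaling by the epithelial genes they were -0.14 and -0.05. The E proteins Tcf3 and Tcf12 did not pass. Tcf7l2, a Wnt effector that is also called TCF4 in the literature, had a log2 fold change of -0.10 that missed the threshold (edgeR adjusted p = 0.714), and its relative Tcf7l1 fell by 1.23 (edgeR adjusted p = 0.00283). Because of the shared name, a report of TCF4 as a limbal marker may mean Tcf4 or Tcf7l2.

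Of 10 cadherin and catenin genes, 3 rose (Cdh5, Cdh11 and Cdh13, log2 fold changes 1.26, 0.78 and 0.80) and 2 fell (Cdh4 and Jup, -2.34 and -1.13), shares near those of all tested genes. None of the 3 is the epithelial cadherin: Cdh5 is known from endothelium and Cdh11 from mesenchyme. Cdh1 did not pass (log2 fold change 0.12), and a test of its difference from Cdh3 was not run. With scaling by the epithelial genes 1 of the 10 rose and 5 fell.

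Markers of other cell types differed between the groups too, in both directions. Their counts are to be read against the 21.4% of all tested genes that were higher and 19.9% that were lower. All 11 macrophage markers rose, with a summed TPM of 127 to 148 in controls and 592 to 640 with L-733,060, and none was at 0. All 5 tested of 7 neutrophil markers rose, with a summed TPM of 13.4 to 26.9 in controls and 197 to 1064 with L-733,060, where L-733,060 3 was lowest. All 6 conjunctival markers rose (11905 to 13828 against 29329 to 32095 summed TPM). Of 10 corneal differentiation markers, 9 fell (32923 to 45465 against 3256 to 4216 summed TPM). All 5 tested of 8 lymphocyte markers rose but stayed low (0.743 to 2.15 against 5.83 to 8.47 summed TPM). Cd4 lost its call without control 2, control 3 or L-733,060 1 (edgeR adjusted p from 0.0516 to 0.0640), which left 4 higher. The B cell markers were near absence in both groups: Ms4a1 had 3 counts over the controls and 0 with L-733,060, and Cd79a had 6 and 8.

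Of 8 stromal markers, 5 rose and 3 fell, and 3 rose without control 1, with a summed TPM of 1967 to 2868 against 1157 to 1592. Of 6 mast cell markers only 3 could be tested, and these went both ways: Cpa3 and Kit fell (log2 fold changes -3.79 and -1.07) and Hdc rose (4.56). The summed TPM of all 6, 55.9 to 83.2 in controls and 31.5 to 43.0 with L-733,060, was mostly Kit, at 52.8 to 76.9 and 19.9 to 41.2 TPM. The summed TPM of melanocyte markers (6.55 to 14.4 against 3.36 to 6.93), endothelial markers (28.8 to 37.1 against 35.9 to 52.9) and Schwann cell markers (77.5 to 103 against 58.6 to 87.1) overlapped between the groups. By the edgeR test 2 of 3 tested melanocyte markers and 2 of 3 tested Schwann cell markers fell. Of 7 endothelial markers, 3 rose and 1 fell. No melanocyte marker was called without L-733,060 2, and no Schwann cell marker without L-733,060 1. The genes Ifitm3, Cd63 and Cebpd are also used by white blood cells, and Ifitm3 and Cd63 by stromal cells. The part of these cell types in the differences of the members was not tested. Nor was it tested for the active markers, Socs3 among them, or for the ratios to them.

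Genes with the profile most like each member over the 6 samples were found among 14182 genes as the smallest Euclidean distance between centred log2(CPM + 0.5) values. For Gpha2 they were Dock10 (distance 0.136), B4galt6 (0.171) and Rab20 (0.193). For Ifitm3 they were Mlkl (0.199), Adamts5 (0.202) and Itgb2 (0.205), and for Cd63 C1qa (0.227), Mtfr2 (0.228) and Evi2 (0.233), of which Itgb2 and C1qa are genes of white blood cells. For Cebpd they were Gpt2 (0.227), Ccna2 (0.264) and Pot1b (0.277), of which Ccna2 is a cyclin gene of dividing cells.

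The closest match of all was that of Lrig1 to Tsc22d4 (distance 0.0615), followed by Epb41l4b (0.0923) and Phlda2 (0.177). For Abcg2 the nearest were Slc12a2 (0.205), D530033B14Rik (0.208) and Plaat3 (0.215). For Cdh3 they were Fes (0.210), Thy1 (0.365) and Apobec2 (0.366), the second of which is a stromal marker here. Thy1 had 5.94, 3.63 and 4.43 TPM in controls 1 to 3 against 16.4, 13.3 and 30.3 TPM in L-733,060 samples 1 to 3. As for Cdh3, L-733,060 3 was highest and control 2 lowest, which follows from choosing genes by likeness. Whether like genes share a cell type was not tested.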

How the data were processed

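Limbal RNA of wild-type mice was sequenced after poly(A) selection in 6 samples. Per the submitters' processing notes, the authors used bcl2fastq, HISAT2 2.1.0 and HTSeq 0.11.2 with mm10. The sources used here do not give their settings, strand mode or annotation. The authors deposited whole-number read counts per gene, TPM and a gene length, and no per-sample column went unused. As the labels describe no molecular identifiers, copies made by PCR were counted too.

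In R 4.3.3, edgeR 4.0.16 (filterByExpr, minimum count 10, minimum total 15) kept 15712 genes and removed 23377. TMM factors scaled the libraries, and the groups were compared by a quasi-likelihood F test, two-sided, and p-values were adjusted by Benjamini-Hochberg over the genes kept. Standard errors are the size of the log2 fold change over the root of F. A common biological coefficient of variation of 0.157 was estimated. The code was checked on simulated counts. Levels between genes are deposited TPM. Samples of a group differed by more than counting error (chi-square per degree of freedom 15.0 to 38.7, and 179 to 267 between groups).

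Ratios were compared by exact permutation tests. Alternatives were DESeq2 1.42.0, limma 3.58.1 (voom), other scalings, including 1 by the epithelial genes Trp63, Cdh1 and Epcam, other filters, a replicate block, and leaving out each sample.

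The members and gene lists were chosen with earlier results of these data known. Named genes are all members, all active markers, the tested genes of smallest p of each other list, and those needed for small counts. Others, such as Mki67, Pcna, Abcg1 and Thy1, were named after their values were seen. Promoters are from RefSeq (GRCm38.p6). Part of the PRC1 list is not reported here.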

Additional observations from a re-analysis of the deposited data

How the results depend on the processing

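The members kept their direction under all 17 alternatives, except Bmi1 and Tcf4. With scaling by the epithelial genes, Bmi1 was -0.18, Tcf4 -0.13 and Gpha2 0.40 on the log2 scale, the last no longer past the threshold (edgeR adjusted p = 0.129), and 1 active marker was higher. That scaling moved the median of all tested genes to -0.49, and relative to it Gpha2 was 0.88, Bmi1 0.31 and Tcf4 0.35. Scaling by Trp63 and Cdh1 alone, chosen after seeing that Epcam differed, moved the median to -0.14, and Gpha2 passed at 0.73 (edgeR adjusted p = 0.0208). Bmi1 passed at 0.35 with library size only, and Tcf4 at 0.36 without the filter. Without the filter, 27.3% of genes passed. With the replicate block Tcf4 was 0.39 and passed (edgeR adjusted p = 0.0222). Same-numbered samples deviated together with correlations of -0.05, 0.37 and 0.16, so the numbers were not taken as pairs. Leaving out each sample gave log2 fold changes of 0.70 to 1.09 for Gpha2, 2.05 to 2.32 for Ifitm3, 1.33 to 1.62 for Cd63, 0.81 to 1.11 for Cebpd, 1.58 to 1.98 for Cdh3, -1.56 to -1.28 for Lrig1, -1.05 to -0.86 for Abcg2, 0.21 to 0.36 for Bmi1 and 0.24 to 0.57 for Tcf4. The members higher were then 5 to 6 and the active markers higher 2 to 3. The cause of these differences was not tested. Depth limits Abcb5 alone among the members.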

Other observations

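Of 11 tested genes that have also been reported as limbal or stem cell markers and are not among the 10 members, 4 rose and 1 fell. Among all tested genes 21.4% were higher and 19.9% lower. Itgb1 and Tspan7 were also counted above among the tetraspanins and partners of Cd63. Vim, the intermediate filament gene of mesenchymal and some stem cells, had 88.9, 104 and 108 TPM in controls 1 to 3, and 306, 308 and 500 TPM in L-733,060 samples 1 to 3 (log2 fold change 1.86, SE 0.17, edgeR adjusted p = 8.2e-06). Itgb1, an integrin subunit that anchors basal cells, had 106 to 126 TPM in controls and 253 to 300 TPM with L-733,060 (log2 fold change 1.19, edgeR adjusted p = 4.2e-05). Frzb, a secreted Wnt antagonist, and Tfpi2, a protease inhibitor, rose from low levels, from 0.0685 to 0.372 TPM up to 1.42 to 2.52 TPM and from 0.0999 to 0.358 TPM up to 1.71 to 2.91 TPM (log2 fold changes 3.05 and 3.11). Vim is also used by stromal and white blood cells, whose markers are described above.

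Spon1, an extracellular matrix gene, fell by 0.69 (edgeR adjusted p = 0.0358), and the call was lost without control 3, without L-733,060 1 or without L-733,060 2. The log2 fold changes of Notch1 (-0.53), Tspan7 (0.36), Sox17 (0.83), Lgr6 (0.49), Msx1 (-0.67) and Ngfr (0.08) did not pass the edgeR threshold. Notch1 was -0.96 without L-733,060 3 and passed (edgeR adjusted p = 7.78e-05), as it did with a replicate block (edgeR adjusted p = 0.0144), without the filter and with both epithelial scalings. Sox17 passed without L-733,060 2 (1.16, edgeR adjusted p = 0.0307). Tspan7 passed with library size only and with the replicate block (edgeR adjusted p = 0.0486 and 0.0457), and Msx1 with scaling by Trp63, Cdh1 and Epcam (-1.19, edgeR adjusted p = 0.0407). These values are a description, with no hypothesis attached.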
